A study of Rattus norvegicus with 10 samples.

Results

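Heparan sulfate is a long sugar chain built on core proteins at the cell surface and in the extracellular matrix. The pattern of sulfate groups along the chain decides which growth factors, morphogens and guidance proteins bind it, and in the brain the chain is known for roles in axon growth, synapse organisation and growth factor signalling. Sulf1 and Sulf2 edit the finished chain outside the cell, as endosulfatases that take 6-O-sulfate groups off it. The syndecans (Sdc1 to Sdc4) are transmembrane core proteins, the glypicans (here Gpc1 and Gpc4) are core proteins held by a lipid anchor, perlecan (Hspg2) is a secreted core protein, and Ndst1 replaces acetyl by sulfate groups in the Golgi while the chain is made.

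These 10 genes were followed through messenger RNA sequencing of the rat hippocampus. The table held 32041 RNA records, 16610 gene symbols were matched to them, and 9 of the 10 listed genes had a record, 1 each. No record was matched to Hspg2, which was not analysed here. Sulf1 was chosen for its difference between the groups in an earlier analysis of these same counts, so its difference is given as a description with no test. The other listed genes were added as its partners, and their differences were tested.

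The samples were 10 adult male Sprague-Dawley rats, for which the labels name no transgene or engineered allele. In 5 rats (TBI) a traumatic brain injury was made by lateral fluid percussion. This is a pressure pulse given to the intact dura through an opening over the left parietal lobe. The study's methods give 3.32 ± 0.01 atm as its mean severity, without naming the kind of error or values for single rats. The 5 sham rats (sham) had the same anaesthesia and surgery without the pulse. The left hippocampus was taken 3 months later and tissue containing CA3 and the dentate gyrus was used, which the labels call dorsal hippocampus. Both groups thus shared the craniectomy, and the study's methods state that the injured rats had no EEG recording and showed no seizures on handling. Each library came from 1 rat. In such bulk tissue, fewer cells of a type and less RNA per cell cannot be told apart.

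Libraries held 23425817 to 31671838 counts on RNA records. Sham replicates 4 and 5 stood apart with 59.0% and 58.5% of their counts on ribosomal RNA, against 12.5% to 26.2% in the other 8 libraries. By group the ribosomal share averaged 38.7% for sham and 19.7% for TBI, with SDs of 18.3 and 5.23 over 5 rats each. An exact permutation test (two-sided) gave this difference a p of 0.0238. The share was looked at because it had been unequal between the groups in an earlier analysis, so this p is a description and no independent test. Sham replicate 1 stood apart in its marker genes, as given below. Markers of neurons, granule cells and CA3 were measured in every library, so the labelled tissue was present, and no marker of any list with a record was at 0 in all rats. Of all 22431 records, edgeR's quasi-likelihood test gave 0% an adjusted p under 0.05, the lowest being 0.477. Without adjustment, 4.89% of records had a p under 0.05 and were higher in TBI rats and 3.00% were lower, which makes 7.89% in either direction. Values are given as CPM, read counts divided by library size after trimmed mean (TMM) scaling. Since transcript lengths were not used, CPM is compared between rats for 1 gene and not between genes.

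Sulf1 had 608 reads in all 10 libraries together. In sham replicates 1 to 5 it stood at 1.09, 0.970, 1.62, 0.884 and 1.19 CPM. In TBI replicates 1 to 5 it stood at 4.29, 2.87, 1.41, 2.34 and 2.23 CPM. Of the TBI rats, 4 lay above every sham rat, while TBI replicate 3 lay below sham replicate 3, so the groups overlapped. Between these 2 libraries the difference was not detectable at this depth: 50 reads in sham replicate 3 gave an exact Poisson 95% interval of 1.21 to 2.14 CPM, and 48 reads in TBI replicate 3 one of 1.04 to 1.87 CPM. Such intervals cover counting error only. The mean was 1.15 ± 0.288 CPM in sham and 2.63 ± 1.07 CPM in TBI rats (SD, n = 5 each), which is a log2 change of 1.16 (SE 0.262) or 2.24-fold. The coefficient of variation was 25.1% in sham and 40.6% in TBI rats, among which TBI replicate 1 was the highest at 4.29 CPM. The difference in spread was not tested. Without sham replicates 4 and 5 the log2 change of Sulf1 was 1.10, and without TBI replicate 1, the highest rat, it was 0.92.

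Sulf2, the other extracellular 6-O-endosulfatase, stood at 300.4, 212.5, 245, 229 and 199 CPM in sham replicates 1 to 5. In TBI replicates 1 to 5 it stood at 233, 207, 243, 289 and 239.6 CPM. The ranges of the groups lay on top of each other, and the highest rat was a sham. The log2 change was 0.03 (SE 0.108, 95% interval -0.20 to 0.26; edgeR's quasi-likelihood test, adjusted p = 0.970). It changed sign, to -0.06, without sham replicates 4 and 5. Read as Sulf1 counts per 1000 Sulf2 counts, a ratio within each library that no scaling can move, the sham rats had 3.64, 4.56, 6.63, 3.86 and 5.97. The TBI rats had 18.4, 13.9, 5.79, 8.11 and 9.29. Again 4 of the TBI rats exceeded every sham rat and TBI replicate 3 lay inside the sham range, with means of 4.93 ± 1.32 in sham and 11.1 ± 5.05 in TBI rats (SD, n = 5 each). This ratio holds the counts by which Sulf1 was chosen and was not tested.

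**Figure D1:**
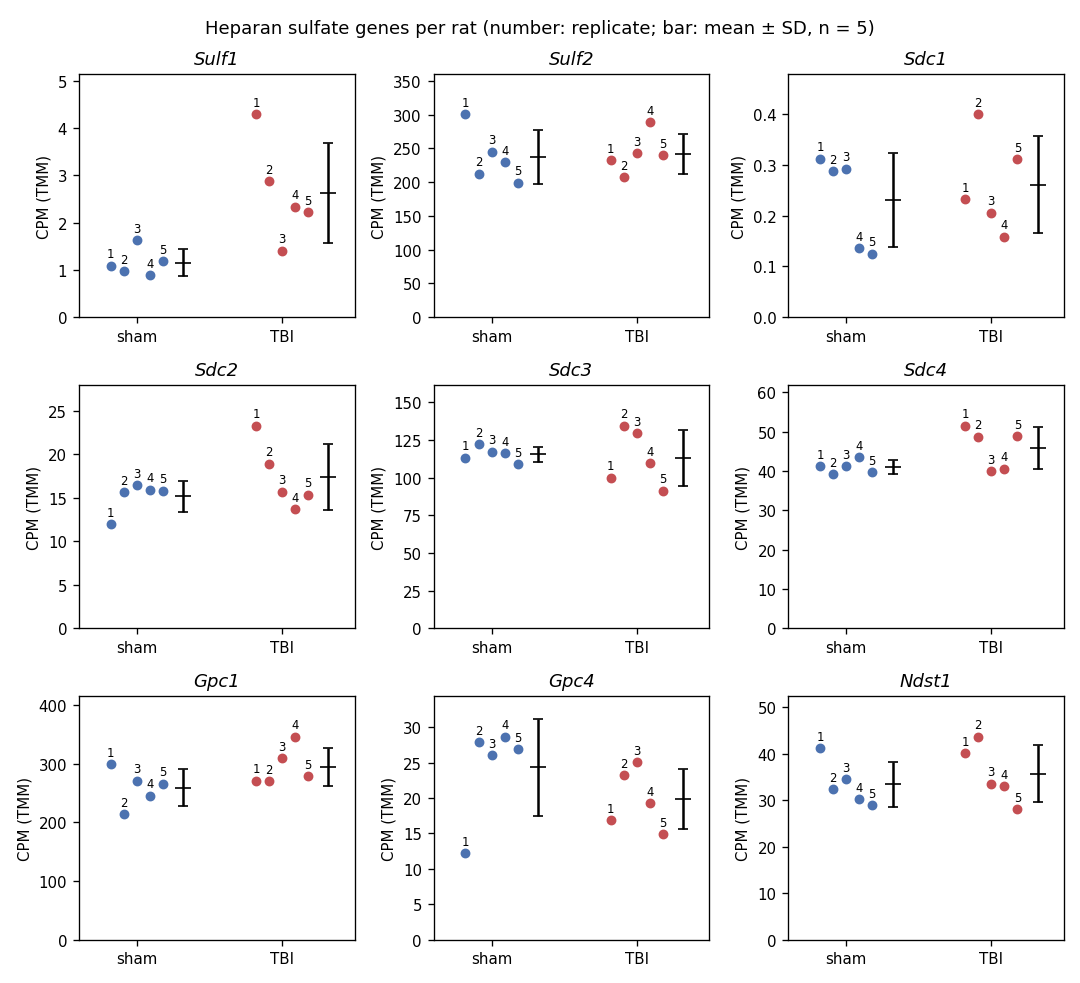
CPM (TMM-scaled, linear axis from 0) of the 9 measured genes in each rat, with sham rats in blue, TBI rats in red, the replicate number beside each point and bars for the mean ± SD (n = 5). Sulf1 is above the highest sham rat in 4 of 5 TBI rats, and in each of the 9 panels the ranges of sham and TBI rats overlap.

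Of the 8 measured genes other than Sulf1, 0 had an unadjusted p under 0.05, against 7.89% of all records. Their log2 changes ran from -0.29 to 0.20 with a median of 0.08, and the median of all records was -0.01. All 9 genes including Sulf1 overlapped between the groups, and so did all but 0.923% of the records tested.

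Among the syndecans, Sdc4, a core protein of focal adhesions, stood at 41.3, 39.2, 41.3, 43.6 and 39.7 CPM in sham replicates 1 to 5 and at 51.5, 48.7, 39.9, 40.5 and 48.8 CPM in TBI replicates 1 to 5. TBI replicates 1, 2 and 5 exceeded every sham rat and the other 2 lay within the sham range. The log2 change was 0.16 (SE 0.083, 95% interval -0.01 to 0.34; edgeR's quasi-likelihood test, adjusted p = 0.661).

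Sdc2, a syndecan found at dendritic spines and on mesenchymal cells, stood at 12.0, 15.6, 16.4, 15.9 and 15.8 CPM in sham replicates 1 to 5. It stood at 23.3, 18.9, 15.7, 13.7 and 15.3 CPM in TBI replicates 1 to 5. Sham replicate 1 was the lowest rat of all and TBI replicates 1 and 2 the highest, while the other 7 rats lay between 13.7 and 16.4 CPM. The log2 change was 0.20 (SE 0.131, 95% interval -0.07 to 0.48; adjusted p = 0.746).

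Sdc3, the syndecan best known from neurons and axons, ran from 109 to 122 CPM in sham and from 91.2 to 134 CPM in TBI rats. Its group means of 115 ± 4.91 and 113 ± 18.7 CPM (SD, n = 5 each) were close, with a log2 change of -0.03 (SE 0.097, 95% interval -0.24 to 0.17; adjusted p = 0.962). The TBI rats spread to both sides of the sham rats, 2 above and 2 below all of them, and the coefficient of variation was 4.25% in sham and 16.6% in TBI rats. For Sdc4 these were 4.15% and 11.5%. The difference in spread was not tested.

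Sdc1, a syndecan of epithelia and plasma cells, had 2 to 15 reads in a library, and its means were 0.231 ± 0.092 CPM in sham and 0.261 ± 0.095 CPM in TBI rats (SD, n = 5 each). A difference was not detectable at this depth (log2 change 0.08, SE 0.363, 95% interval -0.68 to 0.84; adjusted p = 0.980). As shares of the reads on the 4 syndecans, not corrected for transcript length, Sdc3 took 67.2% in sham and 63.8% in TBI rats, Sdc4 23.9% and 26.2%, Sdc2 8.81% and 9.87%, and Sdc1 0.134% and 0.147%.

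The log2 changes of the glypicans had opposite signs, and neither passed the test. Gpc1, the major glypican of neurons, stood at 299, 213, 271, 245 and 266 CPM in sham replicates 1 to 5. In TBI replicates 1 to 5 it stood at 271, 269.6, 309, 346 and 279 CPM. Only TBI replicates 3 and 4 exceeded every sham rat, and the log2 change was 0.19 (SE 0.096, 95% interval -0.015 to 0.39; adjusted p = 0.666).

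Gpc4, a glypican secreted by astrocytes that recruits AMPA receptors to synapses and also a marker of dentate granule cells, stood at 12.2, 27.95, 26.1, 28.7 and 26.9 CPM in sham replicates 1 to 5. In TBI replicates 1 to 5 it stood at 16.8, 23.3, 25.05, 19.3 and 14.9 CPM. All 5 TBI rats lay below sham replicates 2 to 5, and all 5 lay above sham replicate 1. Over all rats the log2 change was -0.29 (SE 0.235, 95% interval -0.81 to 0.24; adjusted p = 0.817). Without sham replicate 1 it was -0.47, which passed the threshold of 0.05 before adjustment but not after it (edgeR's quasi-likelihood test, adjusted p = 0.475). In that setting 8.37% of all records passed before adjustment. Sham replicate 1 is singled out here by its low Gpc4 value, so this result is a description and no independent test. Gpc1 without sham replicate 1 had a log2 change of 0.24 (adjusted p = 0.511). Of the reads on these 2 glypicans, Gpc1 took 91.2% ± 2.94 in sham and 93.7% ± 1.31 in TBI rats (SD, n = 5 each).

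Ndst1, the enzyme of N-sulfation on which later sulfation of the chain builds, ran from 28.9 to 41.3 CPM in sham and from 28.1 to 43.7 CPM in TBI rats. Both ranges were nearly the same, and the log2 change was 0.09 (SE 0.117, 95% interval -0.16 to 0.34; adjusted p = 0.897). Without sham replicates 4 and 5 it was -0.01.

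**Figure D2:**
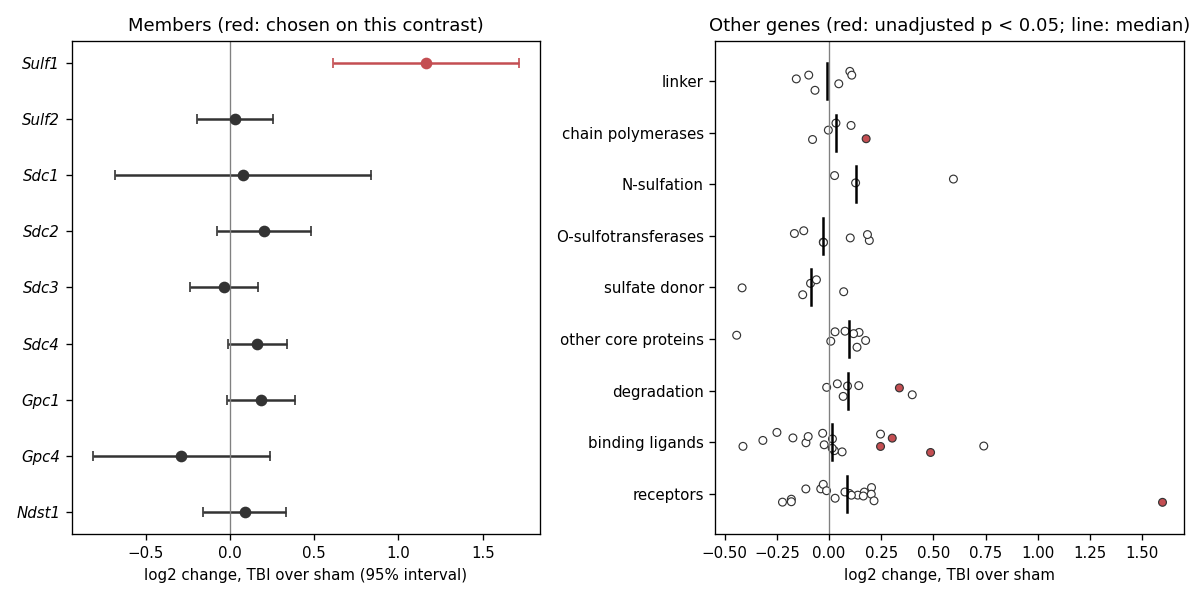
Left, log2 change of TBI over sham with its 95% interval for the 9 genes, Sulf1 in red because it was chosen on this contrast, so that its interval is no test. Right, log2 changes of the other heparan sulfate genes by role, 1 point a gene, filled red where the unadjusted p was under 0.05, with a line at each group's median; the intervals of the 8 genes other than Sulf1 include 0, and 6 of 76 points on the right are red, all to the right of 0.

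The rest of the pathway was read from a list of 91 further genes for making, sulfating, carrying, degrading and binding the chain. Of these, 81 had a record and 76 passed the filter on low counts. Of the 76 genes, 6 were higher and 0 lower in TBI rats at an unadjusted p under 0.05, which is 7.89% and equal to the 7.89% of all records. In the higher direction alone 4.89% of all records passed. None of the 76 had an adjusted p under 0.05 in edgeR's quasi-likelihood test, none had groups that did not overlap, and the median log2 change was 0.04 with a range from -0.44 to 1.60.

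None of 6 tested genes of the linker that joins chain and core protein had a p under 0.05 (median log2 change -0.01), and Fam20b, the kinase that phosphorylates the linker, had the lowest log2 change at -0.16 (SE 0.077; adjusted p = 0.637). B3gat3, which adds the last linker sugar, stood at 139.6 ± 17.9 CPM in sham and 150.5 ± 19.7 CPM in TBI rats (SD, n = 5 each). Of 5 chain polymerases and relatives, 1 did. This was Extl1, a glycosyltransferase of the exostosin family, at 35.8 ± 1.30 CPM in sham and 40.5 ± 3.72 CPM in TBI rats, with a log2 change of 0.18 (adjusted p = 0.593). Extl3 of the same family stood at 43.8 and 47.2 CPM, and the polymerases Ext1 and Ext2 had log2 changes of 0.03 and -0.003.

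Genes that sulfate the chain had no p under 0.05 in any of the 3 remaining N-sulfation genes, the 7 tested O-sulfotransferases and the 5 genes of the sulfate donor supply, with median log2 changes of 0.13, -0.03 and -0.09. Ndst2 stood at 13.8 ± 1.14 CPM in sham and 14.1 ± 1.36 CPM in TBI rats. Hs6st1 to Hs6st3 add the 6-O-sulfate groups that the Sulf enzymes remove. Their log2 changes were -0.03 (SE 0.085) for Hs6st1, 0.10 (SE 0.157) for Hs6st2 and 0.18 (SE 0.152) for Hs6st3, with adjusted p-values of 0.965, 0.911 and 0.812. Hs2st1, the 2-O-sulfotransferase, had a log2 change of -0.03 (SE 0.071). Bpnt1, a phosphatase that clears the by-product of sulfation, stood at 45.4 CPM in sham and 42.6 CPM in TBI rats.

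Of the 8 genes listed with the other core proteins, which include Notum, an enzyme that releases glypicans, none had a p under 0.05 (median log2 change 0.10). Agrn, the agrin of synapses and basement membranes, stood at 57.7 ± 5.59 and 58.1 ± 5.20 CPM. Gpc3 had the lowest log2 change of the pathway at -0.44 (SE 0.380; adjusted p = 0.831). Of 7 tested genes of degradation, 1 had a p under 0.05. This was Gusb, the lysosomal beta-glucuronidase, at 3.39 ± 0.553 CPM in sham and 4.29 ± 0.904 CPM in TBI rats (log2 change 0.34, SE 0.155; adjusted p = 0.620). Hpse, the heparanase that cuts the chain, stood at 0.798 and 1.04 CPM (adjusted p = 0.726), and Sumf1, which activates sulfatases including the Sulf enzymes, at 26.5 and 26.3 CPM.

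The 76 genes included 17 tested ligands and 18 tested receptors that bind the chain. Of these, 3 ligands (17.6%) and 1 receptor (5.56%) had an unadjusted p under 0.05, against 7.89% of all records. The ligands (median log2 change 0.01 over all 17) were Mdk, Bmp4 and Nrtn. Mdk encodes midkine, a heparin-binding growth factor, and stood at 9.89 ± 1.62 CPM in sham and 12.2 ± 0.514 CPM in TBI rats (SD, n = 5 each), a log2 change of 0.30 (SE 0.105; adjusted p = 0.507). The TBI rats lay between 11.7 and 12.8 CPM and the sham rats between 8.55 and 12.6 CPM. Bmp4, a bone morphogenetic protein, had a log2 change of 0.25 (SE 0.099; adjusted p = 0.568), and Nrtn, the neurotrophic factor neurturin, one of 0.49 (SE 0.222; adjusted p = 0.620). The fibroblast growth factor Fgf2 stood at 2.27 and 2.70 CPM (adjusted p = 0.777), and the guidance ligand Slit1 at 154 and 142 CPM.

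Among 18 tested receptors (median log2 change 0.09), Met was the only one with a p under 0.05. Met, the receptor of hepatocyte growth factor, ran from 0.062 to 0.718 CPM in sham and from 0.285 to 2.29 CPM in TBI rats, with a log2 change of 1.60 (SE 0.637, 95% interval 0.19 to 3.01; adjusted p = 0.589), the highest log2 change of the 76 genes. Its means were 0.290 ± 0.280 CPM in sham and 1.02 ± 0.765 CPM in TBI rats (SD, n = 5 each), so the sham values rested on few reads and depth limits this gene. Lrp1, an endocytic receptor, stood at 619.7 ± 47.0 CPM in sham and 614.6 ± 174 CPM in TBI rats. Without sham replicates 4 and 5, 4 of the pathway genes had an unadjusted p under 0.05, against 5.60% of the 22445 records then tested. These were Bmp4, Extl1 and Mdk, which were higher, and Slit2, which was lower, while Met, Gusb and Nrtn no longer passed.

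The genes whose pattern over the 10 rats was most like that of Sulf1 were sought among 10716 symbols with a mean of at least 1 CPM, after each group's mean was taken off the log2 CPM. Emp3, a tetraspan membrane protein, was closest with a Pearson r of 0.97 (Spearman's rho 0.92, r without the 2 rats farthest from the median 0.92). Itprid2 (r = 0.96), Igsf10 (r = 0.96), P2ry12 (r = 0.95) and the angiopoietin Angpt1 (r = 0.95) followed. These r were the highest of many, over few rats from libraries that share their scaling, and are descriptions. With the group means left in, Emp3 (r = 0.98), Rassf4 (0.97), Plin2 (0.97), Gbp2 (0.96) and Ptbp1 (0.96) were closest, and that measure also holds the difference by which Sulf1 was chosen.

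**Figure D3:**
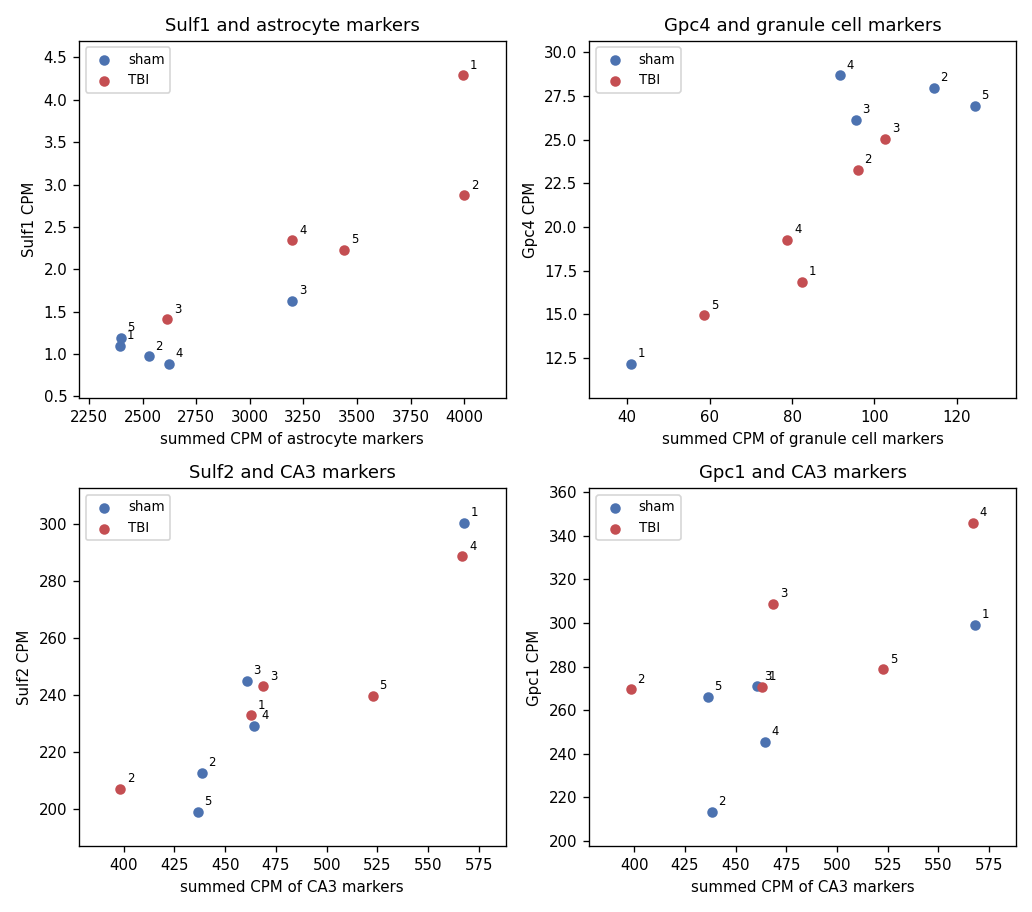
CPM of a gene against the summed CPM of a list of cell type markers in each rat (linear axes that do not start at 0; number: replicate; blue: sham, red: TBI). Sulf1 is highest in the rats with the highest astrocyte marker sums, Gpc4 is lowest in sham replicate 1, which has the lowest granule cell marker sum, and Sulf2 is highest in sham replicate 1 and TBI replicate 4, which have the highest CA3 marker sums, while Gpc1 is highest in TBI replicate 4.

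Marker lists of 15 cell types and regions were summed per rat to see what else moved with these genes. The summed CPM of 7 measured astrocyte markers of 8 listed ran from 2396 to 3198 in sham and from 2616 to 4000 in TBI rats. Of the TBI rats, 4 lay above all sham rats, but TBI replicate 4 (3199 CPM) was nearly level with sham replicate 3 (3198 CPM). The order of the rats resembled that of Sulf1: sham replicate 3 was the highest sham rat in both, TBI replicate 3 the lowest TBI rat in both, and TBI replicates 1 and 2 were the highest. With the group means taken off, the Pearson r between Sulf1 and the astrocyte sum was 0.85 over 10 rats (rho 0.59), and it was 0.67 without the 2 rats whose astrocyte sum was then farthest from the median. Of the single astrocyte markers, 2 of 7 were higher at an unadjusted p under 0.05, against 4.89% of all records. These were Gfap, the filament protein of reactive astrocytes, at 1016 CPM in sham and 1800 CPM in TBI rats, and Aldh1l1 at 23.1 and 27.1 CPM. The log2 changes of the other 5 were 0.53 for Aqp4, 0.17 for Gja1, 0.06 for Slc1a2, -0.001 for Slc1a3 and -0.04 for Aldoc. The mean astrocyte sum was 2629 CPM in sham and 3450 CPM in TBI rats, so most of its rise lay in Gfap. The part of these markers in the Sulf1 difference was not tested.

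Other marker lists differed between the groups or varied with Sulf1. Ependymal markers (5 measured of 6) summed to 11.05 to 21.6 CPM in sham and 19.5 to 32.7 CPM in TBI rats, and markers of thalamus and hypothalamus (7 of 8) to 14.2 to 25.3 and 20.6 to 27.5 CPM. The largest part of the ependymal rise lay in Foxj1, with means of 9.08 CPM in sham and 18.0 CPM in TBI rats. The other log2 changes were 0.54 for Tmem212, 0.50 for Rsph1, 0.31 for Drc12 and -0.79 for Mia. For thalamus and hypothalamus it lay in Hcrt, with means of 3.43 and 7.37 CPM. The log2 changes were 1.19 for Oxt, 0.42 for Avp, 0.36 for Prkcd, 0.04 for Lhx9 and -0.006 for Rgs16. Of 8 markers of meninges and fibroblasts, all measured, 4 were higher at an unadjusted p under 0.05 and 0 lower, against 4.89% and 3.00% of all records. These were Col1a1, Col1a2, Igf2 and Slc6a13. The log2 changes of the others were 0.91 for Dcn, 0.56 for Ogn, 0.07 for Col3a1 and -0.95 for Lum. The sum of the 8 markers ran from 9.81 to 23.9 CPM in sham and from 17.9 to 28.3 CPM in TBI rats. For Sulf1 the r with the group means taken off was 0.73 with the thalamus and hypothalamus list, 0.72 with microglia (7 of 7) and 0.71 with pericytes (6 of 6). It was 0.58 with oligodendrocyte precursors (4 of 4), 0.56 with ependyma, 0.49 with CA1 and 0.43 with meninges and fibroblasts. Without the 2 rats farthest from the median of the list these were 0.71, 0.75, 0.37, 0.09, 0.41, 0.86 and 0.79. With choroid plexus (7 of 7), blood (4 of 5) and neurons (6 of 6) r was -0.61, -0.60 and -0.52. Without those rats it was -0.79, -0.65 and -0.71. CA1 markers (4 of 4), a field that the dissected piece was not meant to hold, summed to 67.8 to 146 CPM in sham rats and to 294, 500, 134, 47.7 and 191 CPM in TBI replicates 1 to 5. TBI replicates 1 and 2, with the most CA1 markers, were also the 2 highest rats in Sulf1 and Sdc2, and TBI replicates 1, 2 and 5, which exceeded every sham rat in CA1 markers, did so in Sdc4 as well. The part of these lists in the differences was not tested.

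Gpc4 varied with the granule cell markers (5 of 6 measured, among them Prox1 and Calb1). Their sum was 40.8 CPM in sham replicate 1 and 91.7 to 124 CPM in the other sham rats, and it ran from 58.6 CPM in TBI replicate 5 to 103 CPM in TBI replicate 3. These were also the lowest and the highest of the TBI rats in Gpc4. With the group means taken off r was 0.94 (rho 0.76), 0.77 without sham replicate 1 and 0.61 without the 2 rats whose granule cell sum was farthest from the median.

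Sulf2 varied with the CA3 markers (5 of 6 measured) in the same way. Their sum was 568 CPM in sham replicate 1 and 567 CPM in TBI replicate 4, against 398 to 523 CPM in the other 8 rats, and r with Sulf2 was 0.91 (rho 0.89; 0.72 without the 2 rats farthest from the median). For Gpc1 and CA3 markers r was 0.69 (rho 0.68), but 0.23 without the 2 rats farthest from the median of the CA3 sum, on which it thus rested. Sdc2 ran opposite to the pan-neuronal markers (6 of 6), with r = -0.93 (rho -0.95; -0.87 without the 2 rats farthest from the median).

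**Figure D4:**
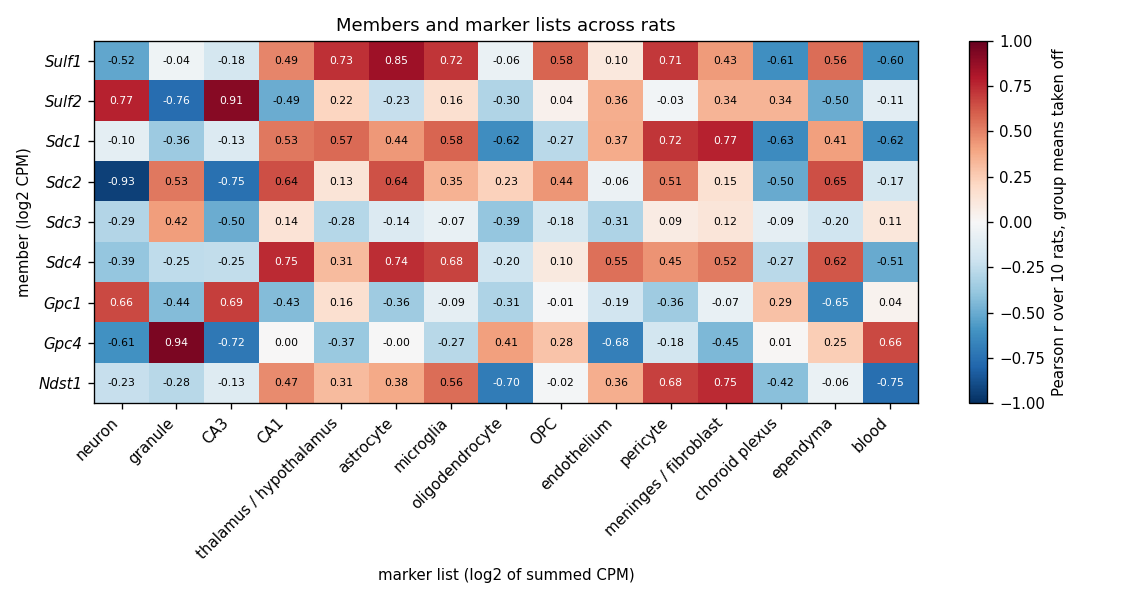
Pearson r over 10 rats between the log2 CPM of each gene (rows) and the log2 summed CPM of each marker list (columns), with the group means taken off; red is positive and blue negative, on a scale from -1 to 1. The strongest values are 0.94 for Gpc4 with granule cell markers, -0.93 for Sdc2 with neuron markers, 0.91 for Sulf2 with CA3 markers and 0.85 for Sulf1 with astrocyte markers.

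These relations came from 135 pairs of gene and list and were singled out after their values were seen. All points share the library's scaling and the piece of tissue, so they are descriptions with no test. Between the genes themselves, r with the group means taken off was 0.62 for Sulf1 and Sdc4, 0.61 for Sulf1 and Sdc2 and -0.10 for Sulf1 and Sulf2. For Sulf2 it was 0.76 with Gpc1, -0.68 with Sdc2 and -0.66 with Gpc4. Sham replicate 1 was the highest rat in Sulf2 and the lowest in Sdc2 and Gpc4. These r were not recalculated without it, so they may rest largely on that rat.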

How the data were processed

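Poly-A RNA of 10 rats (5 sham, 5 TBI) was sequenced in 36-base single reads. The study's methods name BWA for alignment to rn4 and a custom script for counting over Ensembl transcripts, while the rows of the table are RefSeq RNA records. The authors deposited raw counts per record, neither normalized nor pooled. The use of strand was not given in the sources used here, so overlapping transcripts are uncertain. The methods of the study name fewer sham rats than the labels, and all labelled rats were used. Of 32043 rows, those of unmapped reads (median 22.2% of a library) and of an empty entry were kept out. Records were named from RefSeq genes of the GRCr8 assembly, names only, and 54.2% received a symbol (Impad1 was read as Bpnt2). As genome builds differed, no coordinates are given. No protein sequences were used here.

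Rows with a total of at least 44 counts (the 30th percentile) were kept, leaving 22431. edgeR 4.0.16 (R 4.3.3) with TMM scaling and the robust quasi-likelihood test was fitted to all of them, with Benjamini-Hochberg adjustment over all rows. P-values come from this fit, from the same fit with the named rats left out where the text says so, or, for the ribosomal RNA share, from an exact permutation test. Log2 CPM for correlations used a prior count of 2. The procedure was tested on simulated data. Alternatives were DESeq2 1.42.0, limma 3.58.1 (voom), edgeR's exact test, other scalings and filters, the ribosomal RNA share as covariate, summed rows per symbol, and leaving out rats.

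The genes and lists were chosen with earlier results of these data known. Named pathway genes are those with an unadjusted p under 0.05 and the gene of highest mean CPM of each group; others (Ext1, Ext2, Hs6st2, Hs6st3, Hs2st1, Fam20b, Gpc3, Hpse, Fgf2, Slit2) were added after their values were seen. Replicate numbers follow the order of the labels and pair no rats. Each library came from a separate rat.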

Additional observations from a re-analysis of the deposited data

Results flagged for a closer look

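Dixon's gap test was applied to 52 groups of 5 rats. These were 9 genes, the ribosomal RNA share, the ratio of Sulf1 to Sulf2 and 15 marker sums, each in sham and TBI rats. In them 6 values lay far from the other 4 of their group, against 2.6 that chance would give at 1 in 20. The groups share rats and libraries, so the flags are not independent. Sham replicate 1 accounted for 4 of these flags. It had 12.2 CPM of Gpc4 (other sham rats 26.1 to 28.7), 12.0 CPM of Sdc2 (15.6 to 16.4), 2893 CPM of neuron markers (2288 to 2449) and 568 CPM of CA3 markers (436 to 464). Sham replicate 3 had 3198 CPM of astrocyte markers (2396 to 2622), and it was also the sham rat with the most Sulf1. Sham replicate 4 had 36.0 CPM of choroid plexus markers (6.497 to 14.5). No TBI rat lay apart in this way.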

How the results depend on the processing

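Sulf1 kept its direction in all 21 alternatives, from 0.92 without TBI replicate 1 to 1.65 with total count scaling; leaving out single rats gave 0.92 to 1.34. Total count scaling shifted the median over all rows to a log2 change of 0.50, and 1.15 of the Sulf1 change remained above it. Total counts outside ribosomal RNA moved the median to 0.14.

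The count of the other 8 genes with an unadjusted p under 0.05, main value 0, was 3 with total count scaling and 3 outside ribosomal RNA (Sdc2, Sdc4 and Gpc1 in both), and 1 with no filter (Gpc1). It was 0 to 2 when single rats were left out (Gpc1 and Gpc4 without sham replicate 1, Gpc1 without TBI replicate 1 or 2, Sdc4 without TBI replicate 3, Sdc2 and Sdc4 without TBI replicate 4). The shares of all rows under this p were 16.9% and 12.9% with these scalings, 7.30% with no filter and 8.37% without sham replicate 1. They were 7.62%, 6.04%, 8.92% and 7.43% without TBI replicates 1 to 4, and 7.89% in the main test. For the 76 pathway genes the main count of 6 became 15 and 16 with these scalings, 3 with the covariate for ribosomal RNA, and 2 (without sham replicate 2) to 11 (without sham replicate 3, 8 higher and 3 lower) with rats left out, with 3 without TBI replicate 2. The share of all rows moved as well, to 4.42% with the covariate, 5.17% without sham replicate 2 and 11.4% without sham replicate 3. Rows with an unadjusted p under 0.05, main count 1769, were 3788 (3762 higher, 26 lower) and 2902 (2798 higher, 104 lower) with these scalings, 992 with the covariate (549 higher, 443 lower) and 1162 (without sham replicate 2) to 2571 (without sham replicate 3) with rats left out. Rows with an adjusted p under 0.05 were 0 in the main test, 3 with DESeq2, 92 with total count scaling, and 0 to 12 with rats left out (5 without sham replicate 3, 12 without TBI replicate 3).

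Small log2 changes changed sign in some settings. Sdc3 (-0.03) was 0.46 and 0.12 with the scalings and -0.10 to 0.035 with rats left out. Gpc4 (-0.29) was 0.25 with total count scaling. Sulf2 (0.03) was -0.063 with the covariate, -0.056 with sham replicates 4 and 5 both left out and -0.042 to 0.13 with rats left out. Sdc1 (0.08) was -0.44, -0.16 and -0.12 to 0.20, and Ndst1 (0.09) was -0.019 and -0.010, in the same settings. Total count scaling counts ribosomal RNA as library size, and scaling outside ribosomal RNA does not. The causes of the sign changes were not tested. No other alternative changed a sign. No paired analysis was possible because the replicate numbers only follow the order of the labels.

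With 13 to 148 Sulf1 reads and 2 to 15 Sdc1 reads in a library, depth limits both genes. No adjusted p of the 8 tested genes passed 0.05 in any alternative.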
